A study of Mus musculus with 9 samples.

Results

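The genes described here encode the uptake and breakdown of fructose and the reactions particular to gluconeogenesis. They number 9 of the 54838 genes in the tables: *Slc2a5*, *Khk*, *Tkfc*, *Fbp1*, *Fbp2*, *Slc37a4*, *G6pc*, *Pck1* and *Pck2*. They were taken by symbol, and the set was picked because *Fbp1* was among the largest falls between organoids given 4-OHT and organoids given EtOH. The genes were thus chosen by FPKM values of that contrast, which are given as a description, with no test.

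Fructose enters the absorptive cell of the small intestine through the apical transporter GLUT5, the product of *Slc2a5*. Ketohexokinase (*Khk*) phosphorylates it, and triokinase (*Tkfc*) phosphorylates the glyceraldehyde formed further on, so that fructose carbon joins the triose phosphates without passing the regulated step of glycolysis. Gluconeogenesis runs from oxaloacetate through phosphoenolpyruvate carboxykinase (*Pck1* in the cytosol, *Pck2* in mitochondria) and fructose-1,6-bisphosphatase (*Fbp1* and *Fbp2*) to glucose-6-phosphate, which the transporter *Slc37a4* carries into the endoplasmic reticulum for glucose-6-phosphatase (*G6pc*). The small intestine is a major site of dietary fructose clearance, and its epithelium carries several of these enzymes besides the liver and the kidney.

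Organoids had been grown from small intestinal crypts of male *Vil-CreERT2*;*Mettl3 fl/fl* mice, 2 to 4 months old, of the C57BL/6 strain. In these mice the villin promoter drives a Cre recombinase that 4-hydroxytamoxifen (4-OHT) activates in the intestinal epithelium, and the floxed gene encodes METTL3, the catalytic subunit of the m6A RNA methyltransferase. Every organoid carried the transgene and the floxed alleles. They received 4-OHT (500 nM) or its vehicle ethanol (EtOH) for 2 days, and necrostatin-1 (Nec-1), an inhibitor of the kinase RIPK1, or its vehicle DMSO for 5 days. The Nec-1 concentration was stated once as 5 µM and once as 10 µM. RNA-seq was deposited for 7 libraries. EtOH DMSO had 2, as did 4-OHT DMSO and also EtOH Nec-1, whereas 4-OHT Nec-1 had 1. No organoids without Cre received 4-OHT, so an effect of the drug and an effect of the deletion cannot be told apart. The labels do not say whether libraries of 1 group came from separate mice or cultures, so p-values measure only the spread between these libraries, which may be technical.

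The values are FPKM, fragment counts scaled to transcript length and to the mapped fragments of the library. They put genes and libraries on a common scale, but comparisons between libraries still depended on further scaling, as given below. Read totals were not given. From the spacing of the lowest values, the other 6 libraries had 0.850 to 1.03 times the depth of the first EtOH DMSO library. Replicates correlated across genes with Pearson's r of 0.965 to 0.989. *Mettl3* mRNA stood at 2.70 and 2.71 FPKM in EtOH DMSO, with 4-OHT DMSO at 3.72 and 4.14 FPKM. With Nec-1 it stood at 2.41 and 2.47 FPKM in EtOH organoids, against 3.36 FPKM in the 4-OHT library. The targeted mRNA was thus not lower in the libraries labelled 4-OHT, whose group names below are those of the labels, and every direction given for 4-OHT rests on these labels. A value for the whole gene does not show whether the floxed part was removed.

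Enzymes of fructose breakdown came first in the order of levels. In the vehicle controls, EtOH DMSO, *Tkfc* was the most abundant of the 9 genes, with 293 and 305 FPKM, and *Khk* followed with 182 and 159 FPKM. *Fbp1* and *Fbp2* lay side by side, at 101 and 99.1 FPKM for *Fbp1* and at 104 and 99.6 FPKM for *Fbp2*, and these pairs of values overlapped. *Slc37a4* (22.4 and 23.5 FPKM), *Pck2* (13.1 and 16.1 FPKM) and *Slc2a5* (11.1 and 10.3 FPKM) formed a middle tier. *G6pc* and *Pck1*, both abundant in liver, were near the floor, with *G6pc* at 2.23 and 1.83 FPKM and *Pck1* at 0.508 and 0.325 FPKM. *Pck2* therefore exceeded *Pck1* by 25.8 and 49.6 times within these libraries.

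Of the 9 genes, 8 reached 1 FPKM in 2 or more libraries, the filter for testing. *Pck1* was under 1 FPKM in all 7 libraries and was not tested. *G6pc* passed through the EtOH DMSO libraries alone, where it is highest, so its place among the tested genes already rests on a difference. *Fbp1* (chr13:62864753-62888298) and *Fbp2* (chr13:62836884-62858400) are neighbouring genes on the minus strand, with 6352 bp between them in the RefSeq annotation of GRCm38.p6. The other genes lie apart, with *Slc2a5* at chr4:150119344-150144168, *Khk* at chr5:30921436-30931248, *Tkfc* at chr19:10592197-10605482, *Slc37a4* at chr9:44396946-44402966, *G6pc* at chr11:101367716-101377903, *Pck1* at chr2:173153073-173159274 and *Pck2* at chr14:55540263-55550020. *Fbp1* and *Fbp2* are paralogs, and how the counting shared out fragments that match both was not stated.

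**Figure D1:**
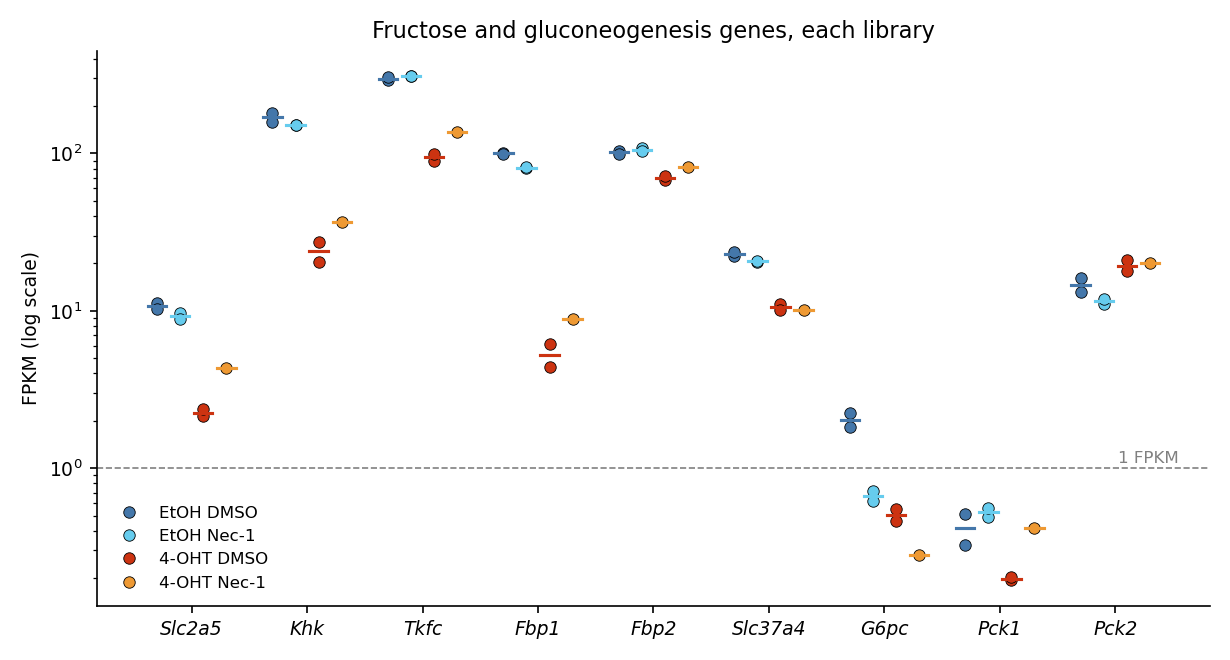
FPKM of the 9 genes on a log scale in each of the 7 libraries, with points for libraries, short bars for group means and a dashed line at 1 FPKM. *Slc2a5*, *Khk*, *Tkfc*, *Fbp1*, *Fbp2* and *Slc37a4* sit lower in the 3 libraries labelled 4-OHT than in the 4 EtOH libraries, *Pck2* sits higher in them, and *Pck1* stays under 1 FPKM throughout.

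Stretches upstream of the annotated starts are shown for *Fbp1* and its neighbour *Fbp2*, which differ most between themselves in the results below, and for *Khk* and *Slc2a5*, which are lower together with *Fbp1*. They are the RefSeq promoter sequences of GRCm38.p6, 5′ to 3′ on the strand of the gene, and end at the base before the annotated gene span. The stretches are chr13:62888299-62888532 and chr13:62858401-62858650, both on the minus strand, chr5:30921309-30921435 on the plus strand and chr4:150119094-150119343 on the plus strand. Capitals mark matches to the motifs searched.
Fbp1: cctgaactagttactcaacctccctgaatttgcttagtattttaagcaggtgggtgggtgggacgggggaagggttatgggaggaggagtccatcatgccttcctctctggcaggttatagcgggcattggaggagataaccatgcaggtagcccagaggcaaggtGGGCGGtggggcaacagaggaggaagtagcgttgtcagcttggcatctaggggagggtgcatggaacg
Fbp2: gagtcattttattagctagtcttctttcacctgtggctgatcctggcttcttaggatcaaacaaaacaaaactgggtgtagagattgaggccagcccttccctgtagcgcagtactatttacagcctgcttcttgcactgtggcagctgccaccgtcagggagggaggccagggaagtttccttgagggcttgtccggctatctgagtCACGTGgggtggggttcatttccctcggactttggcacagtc
Khk: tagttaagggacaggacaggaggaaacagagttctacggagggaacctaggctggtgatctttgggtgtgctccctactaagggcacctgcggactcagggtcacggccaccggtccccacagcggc
Slc2a5: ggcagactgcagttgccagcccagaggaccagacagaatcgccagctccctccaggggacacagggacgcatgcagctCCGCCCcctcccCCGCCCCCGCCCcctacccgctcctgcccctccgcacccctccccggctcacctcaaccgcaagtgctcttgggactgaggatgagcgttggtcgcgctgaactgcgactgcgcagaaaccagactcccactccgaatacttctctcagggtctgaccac

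All 9 genes had a promoter entry, and the 250 bases upstream of each entry's start were searched on both strands for 6 motifs: the TATA box TATAAA, the E-box CACGTG, the cyclic AMP response element TGACGTCA, CAAAGTCCA (a site of HNF4 type), GTTAAT (part of the HNF1 site) and the GC box GGGCGG. *Fbp1* held 1 GC box, starting 84 bases upstream, and *Fbp2* held none but had an E-box starting 42 bases upstream. *Slc2a5* held 3 GC boxes on the opposite strand, 2 of which abut without overlap. *Khk* held an E-box, a GTTAAT and a GC box closer to its start, in bases that fall inside the annotated gene span and are not shown. *G6pc* was the gene with both a TATA box, starting 29 bases upstream, and a GTTAAT. *Pck1*, *Pck2* and *Slc37a4* each held a GC box, and *Pck1* also a GTTAAT on the opposite strand, starting 192 bases upstream. *Slc37a4* had 3 promoter entries and so more sequence searched, and 1 of them held a TATA box starting 32 bases upstream. *Tkfc* held none of the 6 motifs, and none of the 9 genes held TGACGTCA or CAAAGTCCA. Over 32851 promoter entries of this length, 32.7% held the GC box, 12.4% the TATA box, 6.43% GTTAAT, 6.02% the E-box, 1.55% TGACGTCA and 0.384% CAAAGTCCA. A match is a match of letters and was not linked to binding.

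The contrast that chose the genes set 4-OHT DMSO against EtOH DMSO. *Fbp1* was 4.37 and 6.13 FPKM in 4-OHT DMSO, so its mean was 19.1-fold lower than in EtOH DMSO. On the scale of log2(FPKM + 1), used for all differences below, this is −4.03, the 4th lowest of 12702 genes tested. Within each library's ranking of those genes by FPKM, *Fbp1* went from percentile 95.46 in both EtOH DMSO libraries to percentiles 39.28 and 48.99 in 4-OHT DMSO. In bulk RNA, fewer cells of a type and less RNA per cell cannot be told apart.

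The 3 fructose genes of the set were lower in the same libraries. *Khk* was 20.5 and 27.2 FPKM, 7.14-fold below its EtOH DMSO mean and the 17th lowest difference (−2.79). *Slc2a5*, the GLUT5 transporter, was 2.15 and 2.36 FPKM, a log2 difference of −1.85. *Tkfc* was 90.1 and 99.3 FPKM, a log2 difference of −1.65, and so remained the most abundant of the 9 genes. For each of the 3, both 4-OHT DMSO values lay below both EtOH DMSO values, as did those of 30.8% of all genes tested.

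Among the genes of glucose output, *Slc37a4* was 11.0 and 10.2 FPKM (log2 difference −1.05) and *G6pc* was 0.462 and 0.551 FPKM (log2 difference −1.01). *Pck1* was 0.193 and 0.202 FPKM, below both EtOH DMSO libraries but too low for the filter. *Fbp2* was 67.3 and 72.0 FPKM, 1.46-fold below its EtOH DMSO mean. *Pck2* went the other way, with 17.9 and 20.9 FPKM and a log2 difference of 0.39, and the gap between its groups (16.1 to 17.9 FPKM) was narrower than that between replicates of either group.

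In this contrast both 4-OHT DMSO libraries lay below both EtOH DMSO libraries for 8 of the 9 genes, and above for 1. Over all genes tested, 30.8% lay below and 40.7% above in this way. By limma, 41.2% of all genes tested passed the threshold of an adjusted p under 0.05, 24.5% higher and 16.7% lower, and nothing is read from these shares about genes that the contrast chose.

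The comparison of 4-OHT Nec-1 with EtOH Nec-1 asks whether the 4-OHT difference is also present with RIPK1 inhibited. Its differences come from libraries that the contrast behind the choice of genes did not use. Its SE and p-values are not independent of that contrast, since the spread is shared by all groups and draws on the DMSO libraries too. The genes were also chosen with earlier results of these data known. It has 1 library on the 4-OHT side, which the fit assumes to vary like the other groups. *Fbp1* was 80.5 and 81.9 FPKM in EtOH Nec-1 and 8.82 FPKM in 4-OHT Nec-1. *Khk* was 152 and 151 FPKM in EtOH Nec-1 and 36.9 FPKM in 4-OHT Nec-1. Both genes were thus far below either EtOH Nec-1 library, by 9.21-fold for *Fbp1* and 4.11-fold for *Khk* in mean FPKM.

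By limma with Benjamini-Hochberg adjustment over all genes, the log2 difference was −3.07 ± 0.17 (SE; adjusted p = 0.0027) for *Fbp1* and −2.01 ± 0.18 (adjusted p = 0.0045) for *Khk*. *Tkfc* was 310.2 and 311 FPKM in EtOH Nec-1 and 137 FPKM in 4-OHT Nec-1, and fell by 1.17 ± 0.10 on the log2 scale (limma adjusted p = 0.0042). *Slc37a4*, the carrier of glucose-6-phosphate, was 20.6 and 20.8 FPKM against 10.2 FPKM, and fell by 0.96 ± 0.10 (limma adjusted p = 0.0058). These 4 genes kept their calls under all 15 other settings tried for this comparison.

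*Slc2a5* was 9.73 and 8.88 FPKM in EtOH Nec-1 and 4.30 FPKM in 4-OHT Nec-1, a log2 difference of −0.96 ± 0.12 (limma adjusted p = 0.0080). *Pck2*, the mitochondrial carboxykinase, was 11.1 and 12.0 FPKM against 20.0 FPKM, a log2 difference of 0.75 ± 0.16 (limma adjusted p = 0.030), and was the gene of the set that rose. *Fbp2* was 108 and 104 FPKM against 81.8 FPKM, a log2 difference of −0.37 ± 0.09 (limma adjusted p = 0.046). *G6pc*, at 0.718 and 0.618 FPKM against 0.279 FPKM, did not pass, with a log2 difference of −0.38 and a 95% interval of −0.79 to 0.03 (limma adjusted p = 0.157). *Pck1* was 0.491 and 0.562 FPKM against 0.418 FPKM and was not tested.

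In this comparison 6 of the 8 genes tested fell and 1 rose. Over all genes tested 21.1% passed, 7.16% lower and 13.9% higher. The median difference of the 8 genes was −0.96, and that of all genes was 0.08. Leaving out EtOH Nec-1 replicate 1 or replicate 2 left 4 genes called, all lower. The calls lost were those of *Slc2a5* (adjusted p = 0.057 and 0.050), *Pck2* (0.129 and 0.104) and *Fbp2* (0.200 and 0.168), each in limma without replicate 1 and without replicate 2 in that order. Over all genes, the split of calls depended on scaling: 1771 higher and 910 lower became 1264 higher and 1492 lower with each library centred on its median, while the set kept 1 higher and 6 lower.

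**Figure D2:**
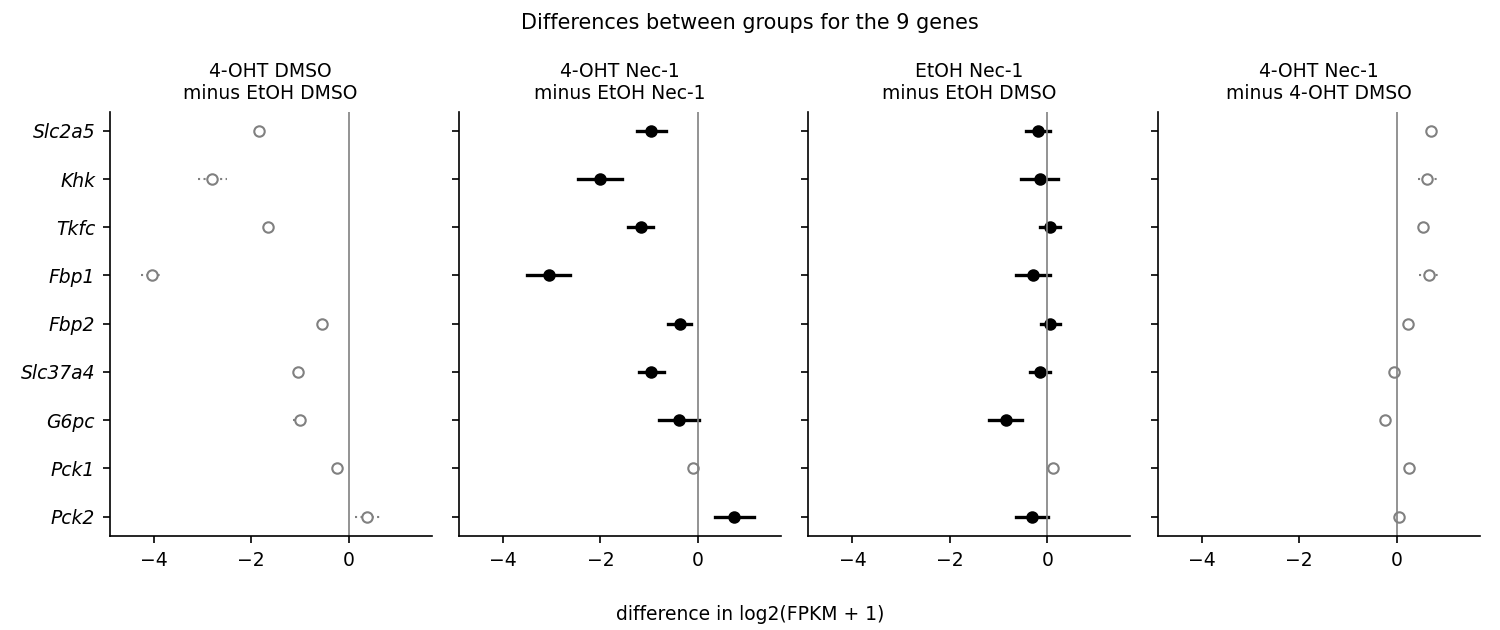
Differences in log2(FPKM + 1) between groups for the 9 genes, in 4 comparisons. Filled points with bars are limma estimates with 95% intervals, and open points with dotted bars are mean differences with the range over pairs of libraries, for comparisons or genes without a test. *Fbp1* and *Khk* lie farthest to the left in both 4-OHT comparisons, and in the Nec-1 comparisons all points lie within 1 log2 unit of 0.

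*Fbp1* and *Fbp2*, which catalyse the same reaction, separated. The ratio of *Fbp1* to *Fbp2* in FPKM was 0.976 and 0.995 for EtOH DMSO, and EtOH Nec-1 gave 0.748 and 0.784. It was 0.0650 and 0.0852 for 4-OHT DMSO, and the 4-OHT Nec-1 library gave 0.108. The DMSO libraries are those whose contrast chose *Fbp1* for its fall, so their ratios are a description. Among the Nec-1 libraries, which that choice did not use, the ratio was lower in the 1 library with 4-OHT. How many other pairs of genes separate in this way was not counted. Ratios within a library show unequal change and not which gene changed.

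The neighbouring steps shifted in the same way. The ratio of *Fbp1* to *Pfkl*, the phosphofructokinase that runs the opposite reaction, was 2.12 and 2.00 with EtOH DMSO and 0.130 and 0.164 with 4-OHT DMSO. Under Nec-1 it was 1.83 and 1.73 with EtOH and 0.248 with 4-OHT. The ratio of *Khk* to hexokinase 1 (*Hk1*) was 25.0 and 16.5 with EtOH DMSO and 1.13 and 1.69 with 4-OHT DMSO, and under Nec-1 it was 11.8 and 10.6 with EtOH and 2.19 with 4-OHT. *Khk* thus exceeded *Hk1* in each library, while *Fbp1* exceeded *Pfkl* in the EtOH libraries and lay below it in those labelled 4-OHT. Against hexokinase 2 (*Hk2*), *Khk* was lower in 4-OHT DMSO, at 20.5 against 30.8 FPKM and 27.2 against 28.8 FPKM. It was higher in the 4-OHT Nec-1 library, at 36.9 against 21.3 FPKM. For the DMSO libraries, whose contrast chose the genes, these ratios too are a description.

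Nec-1 alone was compared in EtOH organoids, a comparison that shares the EtOH DMSO libraries with the contrast that chose the genes. None of the 8 genes tested passed limma's adjusted threshold, where 0.22% of all genes did (28 genes, with 1689 at an unadjusted p under 0.05). *G6pc* was the gene at an unadjusted p under 0.05: 2.23 and 1.83 FPKM in EtOH DMSO against 0.718 and 0.618 FPKM in EtOH Nec-1, a log2 difference of −0.86 with a 95% interval of −1.20 to −0.52 (limma adjusted p = 0.128). *G6pc* entered the test through these same EtOH DMSO libraries, so nothing is read from this difference. *Fbp1* was 80.5 and 81.9 FPKM with Nec-1, below both EtOH DMSO values, with a log2 difference of −0.30 and an interval of −0.65 to 0.06 (limma adjusted p = 0.440). The summed enterocyte markers given below were also lower in EtOH Nec-1, and their part in this difference was not tested. The intervals of *Khk* (−0.53 to 0.21), *Slc2a5* (−0.43 to 0.06), *Slc37a4* (−0.35 to 0.06), *Tkfc* (−0.16 to 0.26), *Fbp2* (−0.13 to 0.25) and *Pck2* (−0.64 to 0.02) all included 0.

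Nec-1 in 4-OHT organoids rests on 1 library and has no test, and it shares the 4-OHT DMSO libraries with the contrast that chose the genes. The 4-OHT Nec-1 library was above both 4-OHT DMSO libraries for *Slc2a5*, *Khk*, *Tkfc*, *Fbp1* and *Fbp2*, below both for *Slc37a4* and between them for *Pck2*. A mean of 1 FPKM or more over the 3 libraries was reached by 7 of the 9 genes. Of these 5 were above and 1 was below, where 24.5% of all genes at that level were above and 50.6% below. The mean log2 differences were 0.70 for *Slc2a5*, 0.67 for *Fbp1*, 0.62 for *Khk*, 0.53 for *Tkfc* and 0.23 for *Fbp2*, against a median of −0.09 over all genes. That of *Slc37a4*, −0.056, turned to 0.059 with each library centred on its median and to 0.067 with upper quartile scaling. None of the 7 genes was at least 1 log2 unit from both DMSO libraries, a distance that 1.21% of all genes reached below and 0.764% above.

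By group mean, EtOH DMSO was highest and 4-OHT DMSO lowest for *Fbp1*, *Khk* and *Slc2a5*, but these are the groups whose contrast chose the genes, so the order is a description. For *Tkfc* and *Fbp2* the mean was higher in EtOH Nec-1 than in EtOH DMSO (311 against 299 FPKM and 106 against 102 FPKM), differences whose intervals included 0. For *Slc37a4* the 4-OHT groups could not be separated, at 10.2 to 11.0 FPKM in the 3 libraries.

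Other genes of the same pathways were read from 4 lists. Of the fructose and polyol partners, 7 of 9 were tested, and under Nec-1 2 fell and 1 rose with 4-OHT. *Slc2a2* (GLUT2), the basolateral exit for glucose and fructose, was 9.80 and 9.94 FPKM against 3.75 FPKM and fell by 1.19 ± 0.11 (limma adjusted p = 0.0048). *Slc5a1* (SGLT1), the apical sodium-glucose transporter, fell by 0.90 ± 0.09 (limma adjusted p = 0.0053). Both falls were called under all 15 other settings. *Akr1b3*, the aldose reductase that starts the polyol route to fructose, differed by 0.51 (limma adjusted p = 0.033). That call was lost in 8 of the 15 other settings, median centring among them (limma adjusted p = 0.074).

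With DMSO, 4 of these 7 partners were lower and 1 was higher. *Slc2a2* was 9.09 and 8.82 FPKM against 1.99 and 1.74 FPKM, a log2 difference of −1.80 (limma adjusted p = 0.00038). *Sord*, the sorbitol dehydrogenase that forms fructose in the polyol route, was 92.7 and 97.2 FPKM against 61.7 and 53.3 FPKM, a log2 difference of −0.72 (limma adjusted p = 0.0036). *Khk*, *Tkfc* and the transporters GLUT5 and GLUT2 were thus lower in each library labelled 4-OHT than in each EtOH library. All but GLUT2 belong to the set that the DMSO contrast chose. In that contrast 30.8% of all genes tested lay below without overlap, and the share over all 7 libraries was not counted. Over all genes this contrast gave 3117 higher and 2120 lower calls, and 2213 higher and 3187 lower after median centring, which moved the median of all genes from 0.08 to −0.08.

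**Figure D3:**
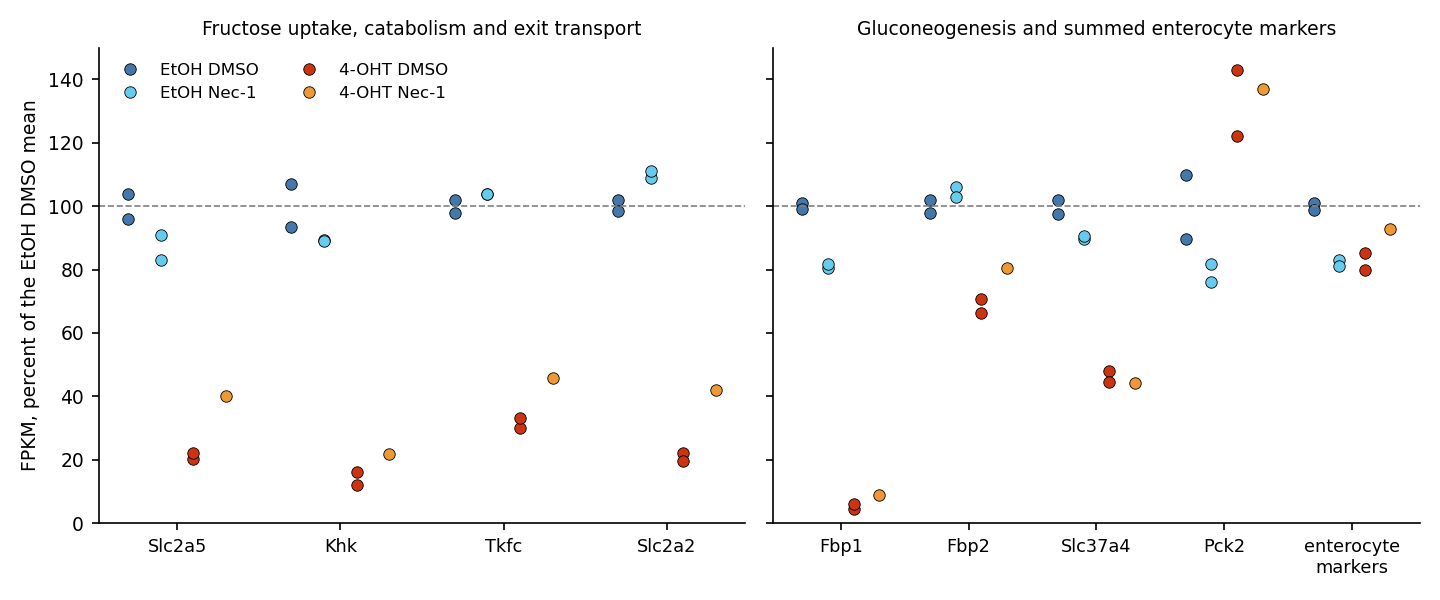
FPKM of each library as a percent of the EtOH DMSO mean, for transporters and enzymes of the fructose route on the left and for *Fbp1*, *Fbp2*, *Slc37a4*, *Pck2* and the summed enterocyte markers on the right. *Khk* lies between 12.0% and 21.7% in the libraries labelled 4-OHT and *Fbp1* between 4.37% and 8.81%. The summed enterocyte markers lie between 80.0% and 92.9% in those libraries, and at 82.9% and 81.2% in EtOH Nec-1. Single enterocyte markers differed in direction: of 15 tested for 4-OHT with DMSO, 5 were higher and 7 lower.

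The gluconeogenesis partners (aminotransferases, malate dehydrogenases, carriers and glycerol enzymes) showed no common direction. Of 15 tested, 2 rose and 1 fell with 4-OHT under Nec-1. The cytosolic aspartate aminotransferase *Got1*, at 18.0 and 14.6 FPKM against 32.5 FPKM, differed by 0.96 ± 0.21 (limma adjusted p = 0.031), and its mitochondrial counterpart *Got2* by 0.51 ± 0.10 (limma adjusted p = 0.024). *Gpi1*, the glucose-6-phosphate isomerase shared by glycolysis and gluconeogenesis, was 299 and 297 FPKM against 180.4 FPKM and differed by −0.72 ± 0.12 (limma adjusted p = 0.015). Over the 15 other settings *Gpi1* lost its call in 2, *Got1* in 4 and *Got2* in 5. All 3 calls were lost without either EtOH Nec-1 replicate, and that of *Got2* also under median centring (limma adjusted p = 0.077). With DMSO, 3 were higher and 5 lower, with *Gpi1* at −1.23 (limma adjusted p = 0.00091) and *Got1* at 1.07 (limma adjusted p = 0.0066) at the extremes.

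The glycolytic enzymes that oppose gluconeogenesis also split. Of 10 tested, 1 rose and 1 fell with 4-OHT under Nec-1. *Pklr*, the pyruvate kinase of liver and intestine, was 122 and 118 FPKM against 63.1 FPKM and fell by 0.92 ± 0.09 (limma adjusted p = 0.0055), under all 15 other settings as well. Hexokinase 2 (*Hk2*) was 11.6 and 11.9 FPKM against 21.3 FPKM, a log2 difference of 0.80 ± 0.16 (limma adjusted p = 0.026). It did not pass in 3 of the 15 other settings, including the fits without either EtOH Nec-1 replicate. With DMSO, 2 were higher and 4 lower. *Hk2* was 10.8 and 14.2 FPKM against 30.8 and 28.8 FPKM (1.20, limma adjusted p = 0.0023). *Hk1* was 7.27 and 9.62 FPKM against 18.1 and 16.1 FPKM (0.95, limma adjusted p = 0.0057), and *Pklr* differed by −1.40 (limma adjusted p = 0.00043).

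**Figure D4:**
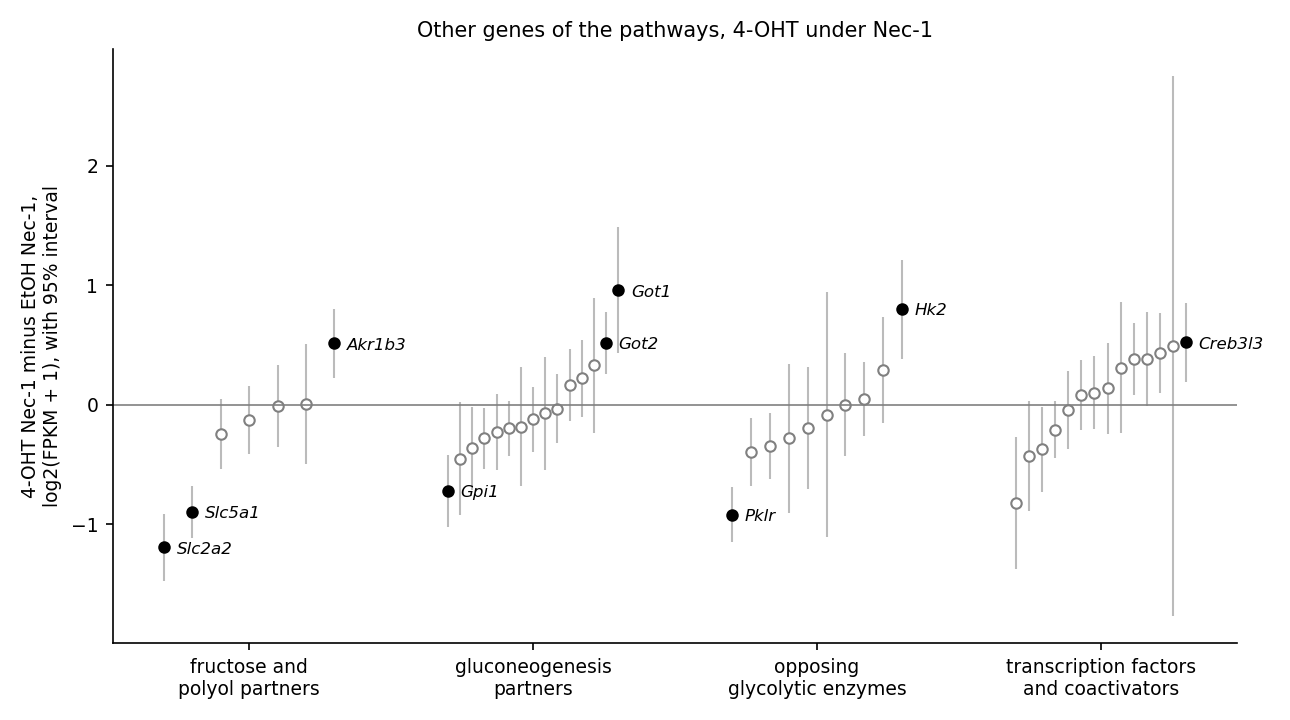
Differences in log2(FPKM + 1) between 4-OHT Nec-1 (1 library) and EtOH Nec-1 (2 libraries) for all tested genes of the 4 lists, ordered by size within each list, with 95% intervals. Filled, named points passed limma's adjusted threshold. *Slc2a2* and *Slc5a1* stand below 0, while the transcription factors spread around it.

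Of the 14 transcription factors and coactivators tested, 1 passed with 4-OHT under Nec-1: *Creb3l3*, a factor of hepatic and intestinal metabolism, differed by 0.52 ± 0.13 (limma adjusted p = 0.046), a call that was lost under median centring (adjusted p = 0.103). With DMSO, 2 were higher and 3 lower. The lower ones were *Nr3c1* (−0.84, limma adjusted p = 0.016), *Cebpa* (−0.50, limma adjusted p = 0.0060) and *Atf4* (−0.43, limma adjusted p = 0.032). The higher ones were *Foxo1* (0.36, limma adjusted p = 0.035) and *Atf3*. *Atf3*, a stress-induced factor, was 5.75 and 6.63 FPKM in EtOH DMSO and 11.4 and 10.8 FPKM in 4-OHT DMSO (0.76 ± 0.11, limma adjusted p = 0.0047). Its difference under Nec-1 was 0.43 (limma adjusted p = 0.072). *Hnf4a*, a nuclear receptor of liver and intestine that acts on many of these genes, was between 143 and 185 FPKM in the 7 libraries, with log2 differences of −0.04 under Nec-1 (limma adjusted p = 0.844) and −0.22 with DMSO (limma adjusted p = 0.149). *Mlxipl* (ChREBP), the sugar-responsive factor placed in the fructose list, differed by −0.01 under Nec-1 (limma adjusted p = 0.970) and by −0.50 with DMSO (limma adjusted p = 0.018). *Hnf4a* and *Mlxipl* were named after their values had been seen. Over the 4 lists none of 46 genes passed limma's adjusted threshold for Nec-1 in EtOH organoids, with 10 at an unadjusted p under 0.05.

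Fructose uptake belongs to absorptive enterocytes, so their markers were read in the same libraries. The summed FPKM of 16 enterocyte markers was 1740 to 1780 with EtOH DMSO and 1409 to 1499 with 4-OHT DMSO, with none at 0. Under Nec-1 the sum was 1430 to 1459 with EtOH and 1634 with 4-OHT. Of 15 enterocyte markers tested with 4-OHT, 5 were higher and 7 lower with DMSO, and 3 were higher and 2 lower under Nec-1. Sucrase-isomaltase (*Sis*), a defining brush border enzyme, was 266 to 305 FPKM in the EtOH libraries and 106 to 118 FPKM in those labelled 4-OHT. Alkaline phosphatase (*Alpi*), another, was 76.0 and 78.1 FPKM with EtOH DMSO and 22.3 and 30.3 FPKM with 4-OHT DMSO. Under Nec-1 *Alpi* was 73.6 and 83.9 FPKM with EtOH and 54.2 FPKM with 4-OHT. The brush border peptidase *Anpep* went the other way, from 16.0 and 21.1 FPKM with EtOH DMSO to 37.4 and 43.0 FPKM with 4-OHT DMSO. Under Nec-1 *Anpep* was 28.4 and 26.2 FPKM with EtOH and 60.8 FPKM with 4-OHT. The markers thus differed in direction, and a sum is set by its most abundant genes. Their part in the differences of the fructose and gluconeogenesis genes was not tested.

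Markers of secretory cells moved with the same labels. Paneth cell markers summed to 1738 to 2240 FPKM in the EtOH libraries and 4429 to 5123 FPKM in those labelled 4-OHT, with 6 of 7 higher by limma with DMSO and under Nec-1. Goblet cell markers summed to 1325 to 1493 FPKM and 1897 to 2407 FPKM, with 6 of 7 higher with DMSO and 4 under Nec-1. Enteroendocrine markers summed to 268 to 330.3 FPKM and 543 to 611 FPKM, with 8 of 8 and 6 higher. Stem cell markers summed to 62.3 to 83.2 FPKM and 46.3 to 74.0 FPKM, with 4 of 7 and 2 lower. The part of these cells was not tested either.

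Fibroblast markers summed to at most 0.198 FPKM and immune cell markers to at most 2.75 FPKM. Those of tuft cells, a rare epithelial type, summed to 3.75 to 5.13 FPKM, with *Il25* listed at 0 in every library. The markers of hepatocytes and kidney tubules, other sites of gluconeogenesis, summed to 13.6 to 23.9 FPKM, with *Umod* listed at 0 in every library. Their sums in the EtOH DMSO and 4-OHT DMSO libraries overlapped, while under Nec-1 they were 13.6 and 15.0 FPKM with EtOH and 17.1 FPKM with 4-OHT. Of the 3 tested, 1 was higher with 4-OHT in both comparisons, namely *Cyp2e1* (log2 difference 1.24 with DMSO, limma adjusted p = 0.0088, and 1.20 under Nec-1, limma adjusted p = 0.032). The part of these markers in the differences was not tested.

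The genes most like *Fbp1* across the 7 libraries were sought by Pearson's r of log2(FPKM + 1) among 4402 genes whose mean reached 10 FPKM. They were *Khk* (r = 0.998), *Snrpn* (r = 0.998), *Seh1l* (r = 0.997), *Cldn15* (r = 0.997) and *Efna3* (r = 0.997). *Efna3*, an ephrin ligand, was at 16.1 to 19.8 FPKM in the EtOH libraries and at 1.48 to 3.54 FPKM in those labelled 4-OHT. *Cldn15*, a claudin that forms sodium-permeable pores in the intestinal epithelium, went from 170 to 184 FPKM to between 74.4 and 88.2 FPKM. *Snrpn*, a small nuclear ribonucleoprotein, and *Seh1l*, a nucleoporin, were lower in the 4-OHT libraries, at 27.7 to 31.6 FPKM in the EtOH libraries against 14.3 to 16.4 FPKM for *Snrpn*, and 33.8 to 34.6 FPKM against 18.5 to 19.9 FPKM for *Seh1l*. *Tkfc* ranked 50th, *Slc37a4* 116th and *Fbp2* 198th, and *Pck2* ran opposite (r = −0.83). *Slc2a5*, *G6pc* and *Pck1* did not reach a mean of 10 FPKM and were not ranked. The libraries fall into EtOH and 4-OHT clusters, so these values describe a shared step between them. Among the libraries are those whose contrast chose *Fbp1* for its fall, so the likeness is a description.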

How the data were processed

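RNA-seq of 7 organoid libraries was used. For each library the authors deposited the FPKM of Ensembl mouse genes. Per the submitters' processing notes, HISAT2 2.1.0, StringTie 1.3.3b and mm10 were used, without stated roles or annotation. All columns of the tables were mapped to a library. The 2 CUT&Tag samples were not analysed here.

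limma 3.58.1 in R 4.3.3 was run with a mean-variance trend on log2(FPKM + 1), over the 12702 genes that reached 1 FPKM in 2 or more libraries, with 1 mean per group in all 7 libraries and 3 residual degrees of freedom. Benjamini-Hochberg adjustment ran over all genes, with a threshold of 0.05. The pseudocount understates changes of low genes. The script was tested on simulated data. Python 3.11.15, numpy 2.4.6, pandas 2.3.3 and matplotlib 3.10.9 did the rest. A count test had been planned for counts, which these are not. The genes, partner lists and marker lists were chosen with earlier results of these data known. Text names all 9 genes, *Mettl3*, up to 3 partners per list, direction and comparison that passed with no overlap between groups, and the 5 genes most like *Fbp1*. 1 gene was left out of the lists and is not reported here.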

Additional observations from a re-analysis of the deposited data

Results flagged for a closer look

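For 3 of the genes, Nec-1 moved every library one way in EtOH organoids and the opposite way in 4-OHT organoids. *Fbp1* differed by −0.30 in log2(FPKM + 1) in EtOH organoids and by 0.67 in 4-OHT organoids. *Khk* differed by −0.16 and 0.62, and *Slc2a5* by −0.18 and 0.70, in the same order. How many of all genes show such opposite directions was not counted, so nothing is read from the number 3. In 4-OHT organoids alone, 24.5% of all genes at a mean of 1 FPKM or more were above both DMSO libraries. The difference between the 2 backgrounds was not tested, and the 4-OHT side rests on 1 Nec-1 library. Both differences are taken from the DMSO libraries whose contrast chose the genes, high in EtOH and low in 4-OHT, so the directions are not independent of that choice. The limma intervals of all 3 differences in EtOH organoids included 0.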

How the results depend on the processing

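With 1 4-OHT Nec-1 library, 2 libraries in each other group and no read totals, the data limit the precision of every difference here. *Fbp1*, *Khk*, *Tkfc* and *Slc37a4* kept direction and call in the 4-OHT comparison under Nec-1 under all 15 settings, and *G6pc* stayed uncalled in the 14 where it was tested. *Fbp2* lost its call in 7 settings, *Pck2* in 3 and *Slc2a5* in 2, all in the same direction. No member was called for Nec-1 in EtOH organoids under any of 16 settings.

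The replicate numbers did not pair the libraries: the deviations of same-numbered libraries correlated at −0.04, 0.01 and −0.01. With the replicate block, 1617 genes were called for 4-OHT under Nec-1 (2681 without it), and 6 of the 8 members, *Fbp2* losing its call. For that comparison, leaving out 1 library gave 442 to 3071 genes and 4 to 7 members, the lowest counts without EtOH Nec-1 replicate 2 (442) and replicate 1 (551).

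For Nec-1 in EtOH organoids, 28 genes called became 8 with no filter, 43 with upper quartile scaling and 79 in a fit of these libraries alone, and 9 to 75 with 1 library left out. For Nec-1 in 4-OHT organoids, genes at least 1 log2 unit lower numbered 146, 255 with a pseudocount of 0.1 and 97 at a mean of at least 5 FPKM. Leaving out 1 DMSO library gave 244 to 543 lower (146 with both) and 181 to 247 higher (92 with both), as fewer libraries had to be passed. The difference of *Slc37a4* in that comparison reversed from −0.056 to 0.059 with median centring and 0.067 with upper quartile scaling. Other causes were not tested. The number of genes called for 4-OHT with DMSO stayed within 1.5 times of 5237 under all settings.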
